A study of Homo sapiens with 6 samples.

Results

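The libraries described here are the 3 that were made from cells carrying the label SW620 and given the control siRNA (siNC, repeats 1 to 3). They were chosen by that label alone and are 3 of the 6 libraries of the series. SW620 is an established human colorectal cancer line. The other 3 libraries came from the same line given siRNA against OSBPL3, a gene of the family of lipid-binding proteins related to the oxysterol-binding protein. Their counts enter no level below except in a check of the labels. The siRNA dose, its duration, the sequence of the control siRNA and the culture conditions are not given in the sources used here. All 3 libraries came from cells given an siRNA, so the levels below are not those of untreated cells. Nor do the labels say whether the 3 libraries came from separate cultures, so the spread between them may be technical.

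Columnar cells of the large bowel descend from endoderm and keep their identity through transcription factors such as CDX1, CDX2, HNF4A, FOXA1 and FOXA2, which keep intestinal genes active. Their sheets are sealed by E-cadherin and claudins over a skeleton of the simple-epithelium keratins KRT8, KRT18 and KRT19, whereas mesenchymal cells carry vimentin. Carcinoma cells often hold genes of both kinds, and the receptors and enzymes that a line transcribes set which ligands, nutrients and drugs it could respond to.

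The 3 libraries held 33490163, 33667128 and 30040020 counts. Levels are given as counts per 1000000 (CPM) of the library total after TMM scaling, whose factors lay between 0.995 and 1.004, and every error is the SD over the 3 libraries (n = 3). A gene was called on when its mean was 5 CPM or more, and silent when it had 3 counts or fewer over the 3 libraries together, which at this depth is 0.0309 CPM. A longer transcript gives more counts, so an order or a median in CPM is one of counts and no ranking of transcript levels. Where levels of different genes are ranked, they are given as CPM per kb of annotated exon (merged exons of GENCODE 29; RefSeq length for mitochondrial genes). OSBPL3 counts were 5881, 5778 and 5183 in the siNC libraries and 1451, 446 and 599 in the libraries labelled siOSBPL3. The targeted gene was thus lower in each library labelled siOSBPL3, as its label says.

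Of the 20729 genes listed, 10731 were on (51.8%), 2782 were silent (13.4%) and 7216 lay between. Protein-coding genes were on in 67.1% of 15371 cases and silent in 8.12%, while long non-coding RNA genes were on in 8.11% of 4461 cases and silent in 28.6%. The genes that were on held from 99.31% to 99.32% of the counts of each library. Their median level was 39.1 CPM, against 6.24 CPM over all listed genes and 19.5 CPM over protein-coding genes. Since the gene lists below hold protein-coding genes, their counts are to be read against the 67.1% on, the 8.12% silent and the median of 19.5 CPM. At the top, 2096 genes reached 100 CPM and 105 reached 1000 CPM. Few genes lay at the threshold: 153 were from 5 to under 5.5 CPM and 163 from 4.5 to under 5 CPM. Just inside stood 5.0 (DYNLT2B), 5.01 (ZNF555) and 5.01 CPM (MIF-AS1), and just outside ADM and ARHGEF19, both at 5.0 CPM when rounded, and HOXC9 at 4.99 CPM. At the other end 785 genes had no count in any of the 3 libraries, 1016 had 1 count, 607 had 2 and 374 had 3, next to 390 with 4. Genes without a row were not counted, such as 21 of the 28 cancer-testis genes chosen below. Silent numbers and shares, here and below, therefore describe the listed genes and not all genes without RNA in these cells. Whether counts in the libraries labelled siOSBPL3 decided which genes have a row, and so these numbers, was not tested. A count of 0 over the group allows a level of up to 0.0309 CPM, and limits and shares of counts cover counting error only.

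Sequence just before the start of a gene went with its class. Human promoters rich in the dinucleotide CG are common at widely used genes, whereas a TATA box is a positioning element of fewer genes. In the 250 bases before the start that RefSeq lists (GRCh38.p14), 12412 protein-coding genes of the table had a sequence. A window was called CpG-rich when it had at least 50% G and C and a ratio of observed to expected CG of at least 0.6. This held for 80.9% of 8584 genes that were on, for 48.5% of 2903 between and for 35.8% of 925 silent genes, against 70.0% of all 12412. The median window held 22 CG sites in genes that were on, 13 in genes between and 7 in silent genes. Read the other way, 80.0% of genes with a CpG-rich window were on and 3.81% silent, against 43.9% on and 16.0% silent without one. The letters TATAAA, searched on the gene's strand in the 100 bases before the start, stood in 1.55% of genes on, 5.34% of genes between and 7.03% of silent genes. Among the 75 genes of 1000 CPM or more with a sequence, 85.3% were CpG-rich and 5.33% held TATAAA. Over all 27305 promoters in the RefSeq table the shares were 44.9% and 3.84%. Exons, starts and isoforms used in these cells were not measured, so a window is a description of the reference.

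**Figure D1:**
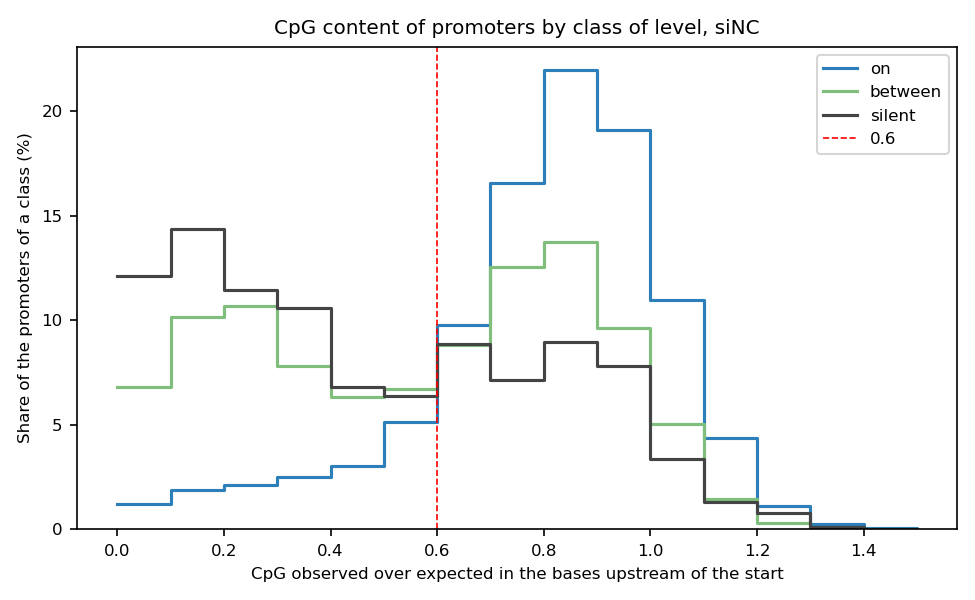
Share of promoters in a class (y axis, %) by the ratio of observed to expected CG in the 250 bases upstream of the RefSeq start (x axis), for genes on, between and silent in the siNC libraries; the dashed line marks 0.6. Genes that were on have a single hump to the right of the line, and silent genes are spread with most to its left (80.9% and 35.8% counted as CpG-rich, GC content included).

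The windows of 4 genes, chosen after their levels were seen, show that the class of the window did not fix the level of a single gene. CG is in capitals, each window is on GRCh38.p14 and reads 5′ to 3′ on the gene's strand. VIM (vimentin, chr10:17227991-17228240, plus strand) and MUC13 (a membrane mucin, chr3:124934752-124935001, minus strand) were on with 8 and 5 CG sites. FOXA1 (an endodermal pioneer factor, chr14:37595250-37595499, minus strand) and MGMT (the enzyme that repairs alkylated guanine, chr10:129466991-129467240, plus strand) had no count with 26 and 36 CG sites.
VIM: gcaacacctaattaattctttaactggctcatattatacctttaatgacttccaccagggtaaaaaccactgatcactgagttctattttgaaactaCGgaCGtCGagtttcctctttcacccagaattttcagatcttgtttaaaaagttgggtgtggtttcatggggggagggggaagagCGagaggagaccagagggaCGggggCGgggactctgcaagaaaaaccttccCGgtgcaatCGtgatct
MUC13: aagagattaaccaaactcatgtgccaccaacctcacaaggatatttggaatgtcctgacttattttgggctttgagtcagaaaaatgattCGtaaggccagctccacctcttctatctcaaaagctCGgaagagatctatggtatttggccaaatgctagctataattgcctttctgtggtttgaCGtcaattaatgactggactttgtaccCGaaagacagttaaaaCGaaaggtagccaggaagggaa
FOXA1: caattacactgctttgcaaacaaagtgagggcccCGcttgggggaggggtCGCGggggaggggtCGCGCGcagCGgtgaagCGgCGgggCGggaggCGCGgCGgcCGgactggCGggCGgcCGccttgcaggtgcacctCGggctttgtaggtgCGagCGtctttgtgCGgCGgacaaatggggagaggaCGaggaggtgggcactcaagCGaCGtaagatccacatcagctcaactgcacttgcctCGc
MGMT: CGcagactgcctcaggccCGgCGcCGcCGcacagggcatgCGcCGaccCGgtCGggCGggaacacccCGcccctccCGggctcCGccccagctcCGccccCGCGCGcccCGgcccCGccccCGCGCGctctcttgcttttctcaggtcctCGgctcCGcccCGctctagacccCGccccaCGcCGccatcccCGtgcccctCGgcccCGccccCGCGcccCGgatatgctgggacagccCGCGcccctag
TATAAA was not found in the last 100 bases of these windows. GC content was 46.0% for VIM and 41.6% for MUC13, against 67.2% for FOXA1 and 80.4% for MGMT. The ratio of observed to expected CG was 0.613 for VIM, above 0.6, so VIM missed the CpG-rich class by GC content alone. That ratio was 0.463 for MUC13, 0.977 for FOXA1 and 0.995 for MGMT. VIM counted 22462, 23204 and 20752 and MUC13 3295, 3242 and 2975 reads in the 3 libraries. Of 51 silent members of the gene lists below that had a window, 28 (54.9%) were CpG-rich, next to 35.8% of all silent protein-coding genes. Besides FOXA1 and MGMT these 28 included CDH2, FGF2, RET and RXRG.

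The most abundant mRNAs were those of respiration and protein synthesis. COX1, the mitochondrial gene of cytochrome oxidase subunit I, stood at 21472, 21464 and 21634 CPM (mean 21523 ± 95.7) and was the gene with the most counts in each library. EEF1A1, the elongation factor that brings transfer RNA to the ribosome, was at 14464, 14279.9 and 13982 CPM. Then followed 2 further mitochondrial genes, ND4 of complex I (10562 ± 251 CPM) and COX3 (8757 ± 113 CPM). Of the 25 genes with the most counts, COX2 (5067 ± 178), ATP6 (4079.5 ± 105), ND2 (4033 ± 76) and ND1 (3957 ± 173) were also mitochondrial. GAPDH, the glycolytic dehydrogenase, counted 5007 ± 40.6 CPM, the chaperone HSP90AB1 4043 ± 39, the splicing protein HNRNPA1 3859.5 ± 77.1, the cytoplasmic actin ACTG1 3824 ± 35.9 and the iron store FTH1 3749.7 ± 76.4 CPM. Ribosomal proteins in this group were RPS3, RPL4, RPS2, RPL13A, RPS23, RPL3 and RPLP0, from 2415 to 2869 CPM, with PTMA at 3210.0, TPT1 at 2644, EEF2 at 2573 and EEF1G at 2548 CPM. For EEF1G, 99.9% of the exon sequence overlaps another gene on the same strand, so its value is uncertain. KRT8 was the single keratin among the 25, at 2956, 2942 and 2956 CPM.

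**Figure D2:**
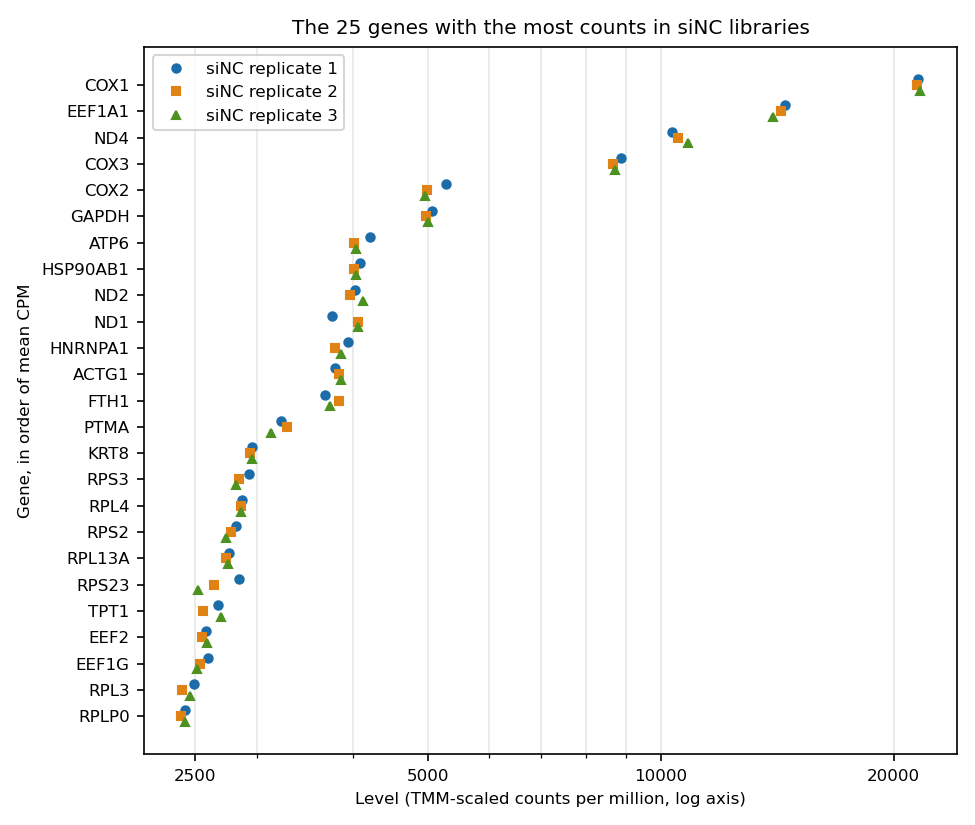
Level in each siNC library (x axis, TMM-scaled CPM, log axis) of the 25 genes with the highest mean, in order of the mean (y axis); each symbol is 1 library. COX1 stands apart at 21464 to 21634 CPM, and from COX2 down all means are at 5067 CPM or below, with the 3 libraries close together.

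Counts were spread over many genes. The 20 most abundant genes held from 11.25% to 11.32% of the counts of a library, the top 100 held 23.5% ± 0.095 and the top 1000 held 54.3% ± 0.15. Between 765 and 777 genes were needed to reach 50% of the counts. Mitochondrial genes took 6.48% ± 0.058 and ribosomal protein genes 9.37% ± 0.13. Long non-coding RNAs took from 1.38% to 1.40%, with the most counts in SNHG29 (1123 ± 22.3 CPM), MALAT1 (872 ± 34), NEAT1 (788 ± 16.8), NORAD (554 ± 8.69) and SNHG1 (518 ± 8.07 CPM). SNHG transcripts host small nucleolar RNAs, and MALAT1 and NEAT1 stay in the nucleus.

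Per kb the order changed, and 15 of the 25 highest genes by CPM were among the 25 highest by CPM per kb. COX1 (13958 ± 62.1 CPM per kb) and COX3 (11169.6 ± 144) led. ND4 (7665 ± 182) and COX2 (7408 ± 261) came next and could not be told apart, since their library values overlapped. ATP6 (5990.5 ± 155) and ND4L (5558 ± 321) overlapped as well; both share a transcript and some bases with a neighbour (ATP6 with ATP8, ND4L with ND4), so their counts depend on how shared reads were assigned. The other genes among the 15 highest were ND1 (4139 ± 181), ND2 (3870.1 ± 73), ATP8 (3087 ± 34.7), EEF1A1 (2394 ± 40.9), ND3 (2262 ± 95.4), TMSB10, a small actin-binding peptide (2243 ± 50.9), RPL41, the smallest ribosomal protein (2142 ± 83.9), FTH1 (1847 ± 37.6) and CYTB (1751 ± 12.6 CPM per kb). All 13 mitochondrial mRNAs were on. ND6, alone on the other strand of the mitochondrial genome, had the fewest counts of them, at 393, 376 and 333 CPM.

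The label was checked against genes that mark the epithelium of the large bowel. Of 28 such genes 25 were in the table, and 16 were on, 8 lay between and 1 was silent (64.0% on, near the 67.1% of all protein-coding genes). Among the genes that were on were those of simple epithelium. KRT8 and KRT18, the keratin pair of simple epithelium, counted 2951 ± 7.79 and 2151 ± 32.9 CPM, and KRT19 708 ± 9.98 CPM. Per kb the order was KRT18 (668 ± 10.2), KRT8 (429 ± 1.13) and KRT19 (303 ± 4.27), with no overlap between neighbours. EPCAM, the epithelial adhesion molecule, was at 510.4, 507 and 506 CPM. VIL1, the actin bundler of the brush border, was at 476, 479 and 469.8 CPM, and CDH1, E-cadherin, at 226, 233 and 218 CPM. MUC13 had 97.9 ± 1.42 CPM and CLDN4 115 ± 2.57 CPM.

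The other 9 genes of that list were below the threshold. CDX1 had no count, and CDX2, the best known intestinal homeobox factor, had 48, 43 and 21 counts (1.44, 1.28 and 0.696 CPM). KRT20 stood at 0.203 ± 0.107 CPM, the antigens CEACAM5 at 0.436 ± 0.118 and CEACAM6 at 0.401 ± 0.102, GPA33 at 0.414 ± 0.0728, LGALS4 at 0.398 ± 0.20, FABP1 at 0.578 ± 0.0893 and the guanylate cyclase GUCY2C at 0.342 ± 0.173 CPM. TFF3, a goblet-cell peptide, was on at 14.7 ± 0.588 CPM, CDH17, the intestinal cadherin, at 12 ± 0.386 CPM, CEACAM1 at 15.3 ± 0.708 and TSPAN8 at 6.16 ± 1.14 CPM. The libraries thus carried keratins and adhesion genes of simple epithelium, and VIL1, and hardly any RNA of CDX1, CDX2, KRT20 or CEACAM5, which are much used to identify colorectal epithelium. In that the data go against the label in part, and the identity of the cells was not tested. PHGR1, SLC26A3 and CA1 were not analysed here.

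Among 27 endodermal and intestinal transcription factors in the table (30 chosen), 17 were on (63.0%, against 67.1% of protein-coding genes), 6 lay between and 4 were silent. By counts PROX1, a homeobox factor used in liver and lymphatic vessels, came first with 374, 384 and 380.3 CPM. KLF5, a factor of dividing crypt cells, was at 258, 266 and 274 CPM, and EHF, an epithelial ETS factor, at 224, 223 and 217 CPM. SOX9, a factor of crypt progenitors, was at 188, 201 and 204 CPM. Per kb KLF5 was the highest (68.4 ± 2.01), EHF (50.5 ± 0.933) and SOX9 (50.3 ± 2.11) overlapped each other, and PROX1 followed at 42.5 ± 0.582 CPM per kb. HNF4A, a nuclear receptor that drives enterocyte and liver genes, was on at 88.6, 93 and 90.3 CPM.

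The 3 FOXA factors, which open endodermal chromatin, differed widely. FOXA2 was at 55, 56.3 and 57.8 CPM and FOXA3 at 13, 13.3 and 13.8 CPM, while FOXA1 had no count in any library. Related families were uneven too. In the GRHL factors of epithelial junctions, GRHL1 was at 19.3, 20.4 and 20.3 CPM, whereas GRHL2 had 0.103 ± 0.0752 and GRHL3 0.0838 ± 0.0729 CPM. GATA6 was at 5.73, 6.71 and 6.33 CPM and GATA4 had 2 counts over the 3 libraries. ELF3 (44.3 ± 2.07 CPM), ONECUT2 (20.7 ± 1.06), ASCL2, a stem-cell factor of the crypt (18.1 ± 2.1), HNF4G (17.7 ± 0.941), ISX (11 ± 0.414) and KLF4 (6.83 ± 0.991 CPM) were on as well. NEUROG3, the factor of hormone-secreting cells, had 1 count, and the goblet factor SPDEF and the foregut factor PDX1 stood at 0.34 ± 0.136 and 0.335 ± 0.119 CPM.

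**Figure D3:**
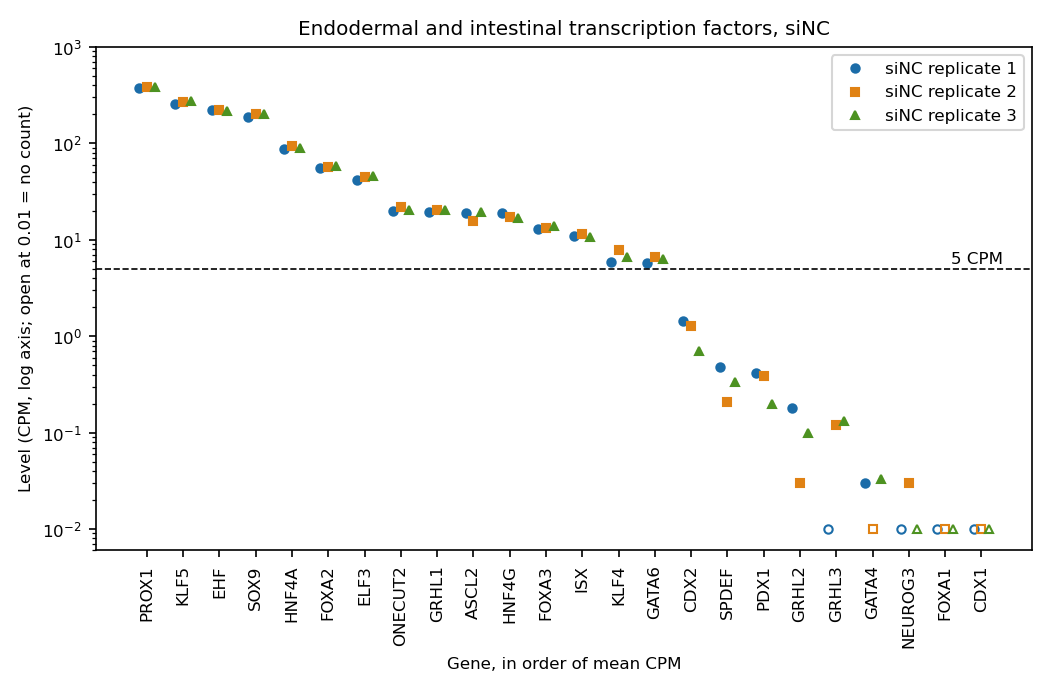
Level in each siNC library (y axis, CPM, log axis) of the endodermal and intestinal transcription factors named in the text, in order of the mean (x axis); open symbols at 0.01 stand for no count and the dashed line for 5 CPM. From PROX1 to GATA6 the 3 libraries nearly coincide, and there is a gap between GATA6 and CDX2.

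Of 23 factors of other lineages in the table (38 chosen) 7 were on (30.4%, against 67.1% of protein-coding genes), 13 lay between and 3 were silent. The number on was 13 at 1 CPM and 3 at 10 CPM, and 5 were silent without library 1. RUNX1, best known from blood, had the most counts, at 121, 118 and 118 CPM. PAX6, a factor of eye and islet, was at 31.9, 33.3 and 33.3 CPM and TBXT, the notochord factor brachyury, at 11.1, 12.6 and 11 CPM. The other 4 that were on, WT1 (7.65 ± 1.22 CPM), MEIS2 (6.87 ± 1.38), GATA2 (6.51 ± 0.468) and PAX8 (6.07 ± 0.552 CPM), were all within 3 CPM of the threshold. TAL1 had 2 counts, and LIN28A and LHX2 had 1 each.

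Members of both an epithelial and a mesenchymal list were on. All 20 epithelial genes chosen were in the table, of which 15 were on, 5 lay between and none was silent, or 1 without library 3, with a median of 35.1 CPM. Beside the keratins, EPCAM and CDH1, they included the splicing regulators ESRP1 (234, 232 and 220.0 CPM) and ESRP2 (69.7, 72.8 and 71.2 CPM) and the membrane protease ST14 (88.6 ± 2.37 CPM). OVOL2 (4.54 ± 0.397 CPM), CDH3 (1.92 ± 0.474), OVOL1 (0.327 ± 0.0624), GRHL2 and RAB25 (0.0442 ± 0.0765 CPM) were below the threshold. Of 19 mesenchymal genes in the table (20 chosen) 11 were on, 5 lay between and 3 were silent, with a median of 15.4 CPM. Against the 67.1% and 19.5 CPM of protein-coding genes, the first list was higher in both its share on and its median, and the second lower; no test was made.

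VIM was the highest of the mesenchymal genes by counts, at 674, 689 and 688 CPM, and S100A4, a calcium-binding protein of motile cells, was next at 490.3, 472 and 469 CPM. Per kb S100A4 (466 ± 11.1) was above VIM (133 ± 1.64), and VIM lay below KRT19 and above CDH1. The repressors of E-cadherin were uneven. ZEB1 was at 20.7, 22.2 and 24.1 CPM, SNAI2 at 18.9, 17.8 and 18 and SNAI1 at 15.4 ± 0.45 CPM, whereas ZEB2 was at 0.209 ± 0.13 and TWIST2 at 0.398 ± 0.0863 CPM. Caveolins CAV1 (109 ± 1.18 CPM) and CAV2 (83.5 ± 3.63), the matrix protein TGFBI (103 ± 3.16) and the receptor AXL (27.1 ± 0.406 CPM) were on, and fibronectin, FN1, was just on at 7.5, 7.16 and 7.03 CPM. N-cadherin, CDH2, and the gelatinase MMP2 had no count and SPARC had 2.

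Markers of other cell types were low with exceptions, and in bulk RNA fewer cells of a type and less RNA per cell cannot be told apart. Leukocyte markers summed to between 24.4 and 27.0 CPM over 10 genes. Of these CD68 alone was on (17.2, 19.6 and 19.4 CPM), with 81.7% of its exon sequence shared with another gene on the same strand. PTPRC, which all leukocytes carry, stood at 0.0819 ± 0.0332 CPM, and ITGAM had 2 counts (1 silent marker, 2 without library 2). Endothelial markers summed to between 2.02 and 3.12 CPM over 5 genes with none on and 1 count for ERG (1 silent, 2 without library 1), and smooth muscle markers to between 8.15 and 8.94 CPM over 4 genes with none on and 3 counts for MYH11. Fibroblast markers summed to between 68.8 and 73.3 CPM over 7 genes, nearly all of it from 2 that were on, the proteoglycan LUM (61.6, 60.2 and 56.5 CPM) and COL1A1 (9.66, 10.3 and 11.5 CPM). COL3A1, DCN and FAP, which fibroblasts carry beside LUM, had 0, 5 and 1 counts.

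Neural markers summed to between 328 and 337 CPM over 6 genes, of which 3 were on. SYT1, the calcium sensor of synaptic vesicles, was at 212, 213 and 211 CPM, TUBB3 at 63.7, 66.1 and 64.5 CPM (35.8% of its exons shared) and ENO2 at 49.5, 55.3 and 55.4 CPM. SYP, another vesicle protein, was at 2.73 ± 0.215 CPM, MAP2 at 0.195 ± 0.152 CPM, and the astrocyte gene GFAP had 2 counts. Cancer-testis genes, which many tumours switch on, were not on in any of the 7 cases in the table of 28 chosen. MAGEB2 had the most counts (1.08 ± 0.172 CPM), and it alone was on at a threshold of 1 CPM. CTCFL had 1 count and was the single silent member, against 2, 2 and 3 silent members without library 1, 2 and 3.

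HOX genes record position along the body axis, with higher numbers towards the tail. Of 38 in the table (39 chosen) 19 were on, 18 lay between and 1, HOXD3, was silent with 1 count. The number on was 29 at 1 CPM, and 3 were silent without library 1. The 4 clusters differed. HOXB genes were on in 7 of 10 cases and summed to between 290.2 and 293.1 CPM, HOXA in 6 of 11 (87.2 to 91.7 CPM), HOXC in 5 of 9 (87.3 to 96.3 CPM) and HOXD in 1 of 8 (8.72 to 9.75 CPM). The most counts were those of HOXB6, at 74.4, 72.9 and 72.4 CPM, then HOXB3 (54.1 ± 1.58), HOXB9 (47.8 ± 1.73), HOXB8 (34.4 ± 1.75), HOXC10 (33 ± 1.45) and HOXA10 (29.9 ± 1.26 CPM). Per kb HOXB6 (28.1 ± 0.405) stood above HOXB9 (18.5 ± 0.67), HOXB7 (18 ± 1.95) and HOXB8 (16.8 ± 0.854), in which neighbours overlapped, and HOXB3 was at 7.26 ± 0.212 CPM per kb. HOXD9, at 6.3, 6.06 and 5.6 CPM, was the member of its cluster that was on. Among the genes of the tail end, HOXC13 was on (13.9 ± 0.60 CPM), HOXA13 was just under the threshold (4.47, 5.02 and 5.17 CPM), and HOXB13 (1.12 ± 0.129) and HOXD13 (0.202 ± 0.099 CPM) were low.

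**Figure D4:**
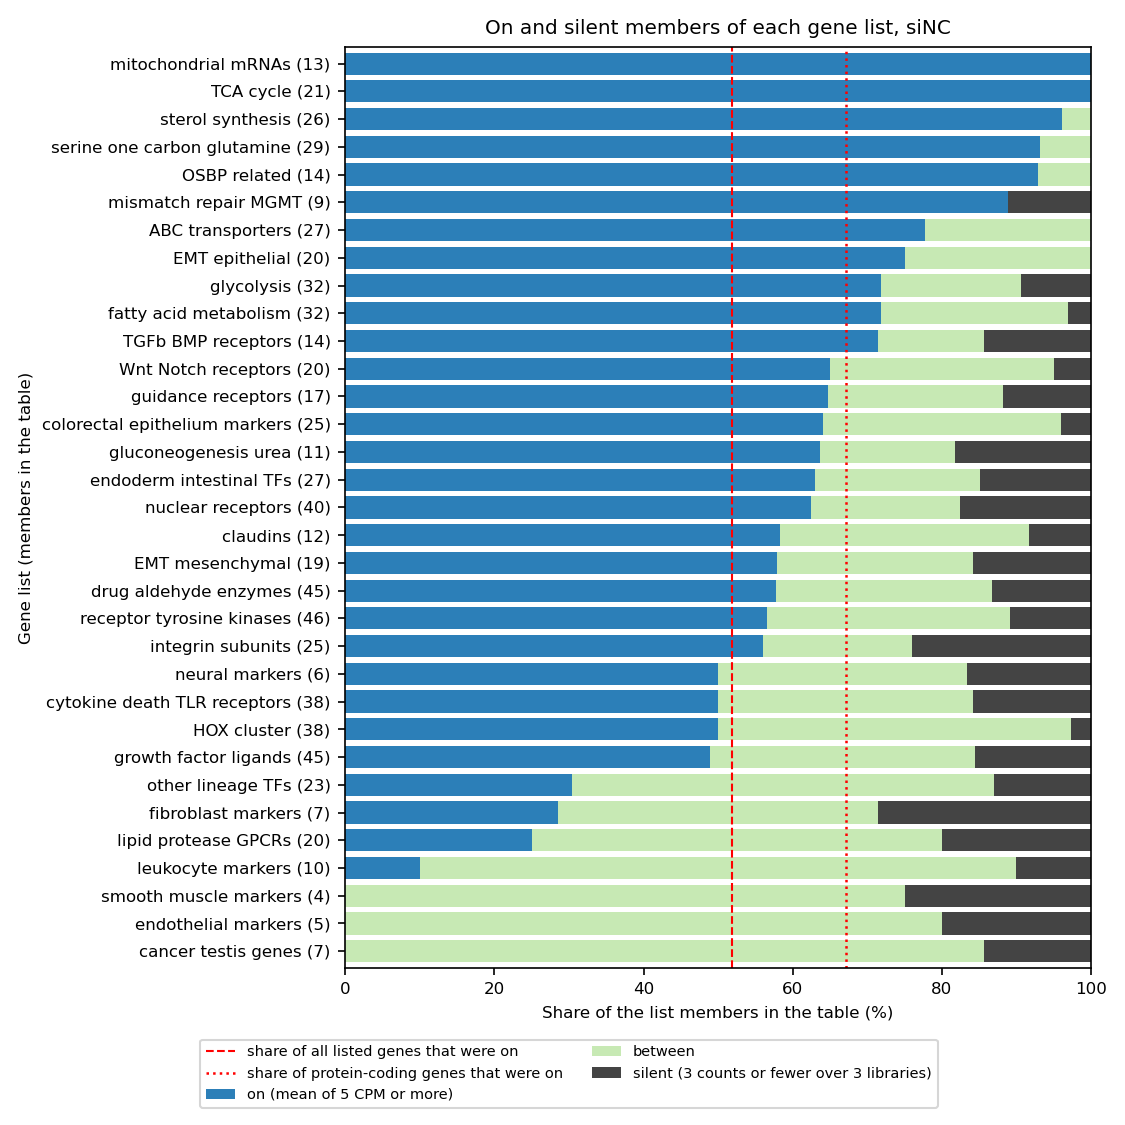
Share of the members of each gene list (y axis, number of members in the table in brackets) that were on, between or silent in the siNC libraries (x axis, %). The dashed line marks the 51.8% of all listed genes that were on and the dotted line the 67.1% of protein-coding genes; mitochondrial mRNAs and the TCA cycle are entirely on, and smooth muscle, endothelial and cancer-testis lists have no member on.

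Over the 33 lists as a whole, 433 of 701 different genes in the table (61.8%) were on and 71 (10.1%) were silent, 22 of them with no count. These shares lay near the 67.1% and 8.12% of all protein-coding genes. Numbers of silent members rest on few counts: without library 1 they moved by more than 1.5 times in 7 lists, without library 2 in 3 and without library 3 in 3. Members of a list without a row in the table were not analysed here, so the shares are of the members listed and not of the families.

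Receptor tyrosine kinases pass growth signals across the membrane. Of 46 in the table (58 chosen) 26 were on, 15 lay between and 5 were silent, among them FGFR2 (3 counts), FLT4 and RET (2 each) and NTRK3 (1 count). Without library 2, 9 were silent. MET, the receptor of hepatocyte growth factor, had the most counts (210.1, 216 and 213 CPM), then ERBB3, a partner of other ERBB receptors (167, 168 and 169.6 CPM), and EPHA2, an ephrin receptor (103, 113 and 115 CPM). Per kb MET (30.3 ± 0.391) stood above EPHA2 (26.6 ± 1.52), and EPHA2 above ERBB3 (18.6 ± 0.142 CPM per kb), without overlap. Of the same family, the drug targets ERBB2 and EGFR were on at 16.9, 20 and 18.4 and 11.2, 13.1 and 12.7 CPM. PTK7 (96.1 ± 3.9 CPM), FGFR1 (83.3 ± 3.86), EPHB6 (83.3 ± 3.95), RYK (81.9 ± 1.81) and IGF1R (70.6 ± 4.61 CPM) were on. KIT (0.0496 ± 0.0618 CPM), PDGFRB (1.16 ± 0.647) and FLT1 (0.0705 ± 0.0675 CPM) were below the threshold.

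Of 45 growth factor genes in the table (54 chosen) 22 were on, 16 lay between and 7 were silent. EFNB2, a membrane-bound ligand of EPHB receptors, was at 300.4, 303 and 305 CPM, and FGF19, a hormone of the ileum that represses bile acid synthesis, at 241, 241 and 239 CPM. FGF19 was the highest ligand per kb (98.3 ± 0.33 CPM per kb), above EFNB2 (60.4 ± 0.461) and FGF3 (40.6 ± 1.59). Of the FGF19 receptors, FGFR4 was on at 18.1, 18.2 and 17.7 CPM. FGF3 counted 47.3, 51.2 and 49.2 CPM, whereas FGF4 had 0.102 ± 0.0677 CPM; both lie beside FGF19 on chromosome 11. EGFR ligands on were TGFA (83.2 ± 3.86 CPM), EREG (26.1 ± 1.3), AREG (23.2 ± 0.587) and HBEGF (6.0 ± 0.658 CPM), while EGF (0.0409 ± 0.0166) and BTC (0.227 ± 0.0146 CPM) were not. VEGFA, the vessel growth factor, was at 142 ± 4.21 CPM, GAS6, the ligand of AXL, at 105 ± 3.97 and PDGFA at 51.9 ± 2.78 CPM. FGF2, FGF7 and IGF1 had no count, ANGPT1, FGF20 and PDGFC had 2 and EFNA5 had 3.

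Receptors of the TGF-beta and BMP pathways were on in 10 of 14 cases. TGFBR2, the receptor that binds TGF-beta first, was at 110.0, 105 and 106 CPM and its partner TGFBR1 at 18.4, 20.9 and 20 CPM. BMPR1A (63.8 ± 1.87 CPM), BMPR2 (50.2 ± 3.52), ACVR1B (42.6 ± 1.12), TGFBR3 (33.5 ± 0.738) and ACVR2B (27.5 ± 1.33 CPM) followed. BMPR1B had 1 count and AMHR2 none. Wnt and Notch receptors were on in 13 of 20 cases, with 1 silent, FZD8 (3 counts). The Wnt co-receptors LRP6 (251, 245 and 236 CPM) and LRP5 (197, 202 and 210.0 CPM) had the most counts, and per kb LRP5 (33 ± 1.03) was above LRP6 (23.6 ± 0.745). RNF43 (70.5 ± 0.881 CPM, 59.5% of its exons shared) and ZNRF3 (52.1 ± 1.93 CPM) remove Frizzled receptors, of which FZD5 was the highest by counts (46.6 ± 2.57 CPM). The R-spondin receptors LGR4 (45 ± 2.6 CPM) and LGR5, a stem-cell marker of the crypt (32.5, 33.5 and 31 CPM), were on, and so was LGR6 (27.5 ± 1.93 CPM). NOTCH2 (31.6 ± 0.313 CPM) and NOTCH1 (27.8 ± 1.18 CPM) were on and NOTCH3 was at 0.16 ± 0.173 CPM.

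Nuclear receptors, which are switched by steroids, lipids and vitamins, were on in 25 of 40 cases (48 chosen). Next to HNF4A the highest by counts were NR2C2 (72.9 ± 3.85 CPM), NR2C1 (69.7 ± 0.449), PPARG, the adipose and colonic fatty acid receptor (50.8 ± 3.04), ESRRA (45.7 ± 0.766) and NR2F1 (41 ± 0.259 CPM). Per kb ESRRA (15.1 ± 0.253) was above HNF4A (12.4 ± 0.308). VDR, the vitamin D receptor, was on at 20, 21 and 20.1 CPM, and the glucocorticoid receptor NR3C1 was below the threshold at 3.09, 3.83 and 4.14 CPM. The oxysterol receptors NR1H2 (19.1 ± 1.3 CPM) and NR1H3 (16.9 ± 1.24 CPM) were on. Silent members included the bile acid receptor NR1H4, NR1I3, NR5A1 and NR5A2, with 1 count each, and NR2E3 and RXRG, with none.

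Cytokine, death and Toll-like receptors were on in 19 of 38 cases (40 chosen), and 6 were silent. TNFRSF10B, a receptor of the death ligand TRAIL, had the most counts (169, 175 and 174 CPM), and TNFRSF10A, another such receptor, was at 30.6 ± 1.1 CPM. Both chains of the interferon-gamma receptor were on, IFNGR1 (69, 71.1 and 64.4 CPM) and IFNGR2 (61.9, 55.3 and 63.4 CPM), and so were IL13RA1 (66 ± 1.36), IL6ST (58.1 ± 3.25) and TNFRSF1B (52.8 ± 4.43 CPM). No Toll-like receptor of the list reached 5 CPM: TLR6 was at 3.64 ± 0.247 CPM, TLR5 had 1 count and TLR7 none. LIFR and OSMR, the partners of IL6ST for other cytokines of its family, had no count, and IL18R1 and CXCR2 had 1. Receptors for lipids, proteases and nucleosides were on in 5 of 20 cases (34 chosen), in 8 at 1 CPM and in 2 at 10 CPM. F2RL1, which trypsin activates, stood at 79.1, 88 and 85.2 CPM, and the other 4 were ADORA2B (10.6 ± 0.474), LPAR2 (9.26 ± 0.565), F2R (6.87 ± 0.598) and LPAR5 (6.34 ± 0.524 CPM). S1PR3 had no count, and F2RL2, FFAR2 and FFAR4 had 1 each. Guidance receptors were on in 11 of 17 cases (21 chosen), with the most counts in ROBO1 (200.3, 215 and 207 CPM), PLXNB2 (89.4 ± 1.68) and PLXNB1 (73.1 ± 5.75 CPM), with NEO1 at 44.9 ± 0.976, PLXNA1 at 42 ± 1.25 and PLXND1 at 41.3 ± 0.0921 CPM. PLXNA4 had no count and UNC5A had 2, the 2 silent members (4 without library 1).

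Integrins fix cells to the matrix, and 14 of 25 in the table (26 chosen) were on, 5 lay between and 6 were silent. ITGA6, which pairs with ITGB4 on laminin, was at 714, 715 and 719 CPM, ITGB1, the partner of most alpha chains, at 557, 547 and 531 CPM and ITGB4 at 202, 204 and 207 CPM. Per kb ITGA6 (109.6 ± 0.482) was above ITGB1 (90.7 ± 2.18) and ITGB1 above ITGB4 (30.2 ± 0.409). ITGAV (102 ± 1.1 CPM), ITGA2 (69 ± 0.862) and ITGB5 (44.1 ± 1.59 CPM) followed. The silent integrins were ITGA4, ITGA8 and ITGA9 with no count, ITGAL with 1, ITGAM with 2 and ITGB3 with 3. Claudins were on in 7 of 12 cases (21 chosen), with the most counts in CLDN1 (231, 214 and 219.8 CPM), CLDN4, CLDN12 (109 ± 3.11), CLDN11, a claudin of myelin and testis (76.4, 81.6 and 77.8 CPM), and CLDN7 (38.8 ± 0.349 CPM), while CLDN3 was just on (7.26, 7.45 and 9.31 CPM) and CLDN22 had no count. It was the single silent claudin, against 3 without library 1.

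Every step of glycolysis had a gene that was on. Of 32 genes in the table (36 chosen) 23 were on, 6 lay between and 3 were silent, with a median of 113 CPM against 19.5 CPM over protein-coding genes. Glucose entry was carried by SLC2A1 (431, 435 and 441 CPM) and SLC2A3 (139 ± 1.5 CPM), while the muscle and fat transporter SLC2A4 was at 4.68 ± 0.739 CPM. For the first step HK1 (141 ± 3.58 CPM), HKDC1 (109.8 ± 5.1) and HK2 (66.5 ± 3.78) were on and HK3 had 1 count. All 3 phosphofructokinases were on, PFKM (139 ± 3.97 CPM), PFKP (116 ± 2.73) and PFKL (44.5 ± 1.04 CPM). Per kb the order was PFKP (24 ± 0.565), PFKM (19 ± 0.543) and PFKL (4.99 ± 0.117). Lower glycolysis was among the highest in counts, with ENO1 at 1713, 1687 and 1673 CPM, PKM at 1256 ± 7.46, PGK1 at 852 ± 15.8 and TPI1 at 760.2 ± 21.9 CPM. PKLR, the liver pyruvate kinase, was at 0.0918 ± 0.027 CPM.

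Both chains of lactate dehydrogenase were on. LDHB counted 1737, 1654 and 1649 CPM and LDHA 1379, 1359 and 1338 CPM, and per kb LDHB (563 ± 16.6) was above LDHA (219 ± 3.25) without overlap; 33.4% of the LDHB exons overlap another gene on the same strand. Lactate carriers SLC16A1 (162 ± 4.43 CPM) and SLC16A3 (121 ± 4.27 CPM) were on and SLC16A8 had 3 counts. ALDOA was at 5.1, 5.82 and 5.97 CPM and ALDOC at 12.4, 10.5 and 11.2 CPM, and 42.3% of the ALDOA exons overlap another gene on its strand, so its value is uncertain. GAPDHS, of sperm, had no count. Of 11 genes of gluconeogenesis and the urea cycle in the table (15 chosen) 7 were on. ASS1, which makes argininosuccinate, had the most counts (277, 270.2 and 271 CPM), and then came ARG2 (113 ± 5.62), PCK2 (82.3 ± 4.61), G6PC3 (25.1 ± 0.69), PC (22.7 ± 1.33) and ASL (18.2 ± 1.01 CPM). The cytosolic PCK1 was just on (7.32, 7.63 and 7.39 CPM), FBP1 was at 0.19 ± 0.136 CPM, and CPS1 (3 counts) and FBP2 (1 count) were silent.

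All 21 genes of the TCA cycle were on, from IDH3G (37.4 ± 1.98 CPM) to citrate synthase, CS (560.3, 581 and 580.5 CPM). MDH2 (358 ± 5.32 CPM), IDH1 (209 ± 1.24), MDH1 (207 ± 4.71), SUCLA2 (180.4 ± 4.06) and SDHD (172 ± 1.85 CPM) lay between them. Of 26 genes of sterol synthesis in the table (27 chosen) 25 were on and none was silent (1 without library 3). Those with many counts included FDFT1, the squalene synthase (444, 445 and 433 CPM), HMGCS1 (245 ± 5.72), FDPS (172 ± 1.61), SREBF2, the factor that drives the pathway (161 ± 3.31), and MSMO1 (150.4 ± 1.06 CPM).

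Fatty acid genes were on in 23 of 32 cases (38 chosen), 8 lay between and 1, CPT1C, was silent with 1 count (2 without library 1). SCD, the desaturase that makes oleate, was at 867, 874 and 860.3 CPM, and its paralogue SCD5 was at 1.11 ± 0.295 CPM. Both making and burning of fatty acids were represented, by ACLY (217 ± 2.75 CPM), FASN (165, 178 and 184 CPM) and ELOVL5 (279.6 ± 4.99 CPM) on one side and ACADVL (341 ± 6.19), HADHA (284 ± 8.0) and CPT1A (171 ± 6.02 CPM) on the other. ACSL3, which activates fatty acids for storage, was at 218 ± 2.72 CPM. Among binding and uptake proteins FABP5 was on (85.7 ± 3.68 CPM), and FABP1, FABP3, FABP6 and CD36 were all below 1 CPM.

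Genes of serine, one-carbon and glutamine metabolism were on in 27 of 29 cases, with a median of 127 CPM. MAT2A, which makes S-adenosylmethionine, had the most counts (709.7, 722 and 682 CPM), and its liver counterpart MAT1A was at 0.0919 ± 0.0504 CPM. Serine synthesis was on at each step, with PHGDH at 132 ± 2.84, PSAT1 at 501, 511 and 513 and PSPH at 120.3 ± 3.67 CPM, and per kb PSAT1 (232 ± 2.91) stood above MAT2A (157 ± 4.57). Mitochondrial SHMT2 (547 ± 9.8 CPM) was above cytosolic SHMT1 (33.6 ± 1.38 CPM) in counts. GLS2, a glutaminase, was at 42.3 ± 2.47 CPM. The glutamine carrier SLC1A5 was nearly the same in each library (493, 494 and 493 CPM), and GOT2 counted 454 ± 3.74 CPM. ASNS stood at 13.9 ± 0.765 CPM, with 44.6% of its exons overlapping another gene on the same strand.

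Of 45 genes of drug and aldehyde metabolism in the table (55 chosen) 26 were on, 13 lay between and 6 were silent. NQO1, a quinone reductase, was at 768, 751 and 744 CPM, and GSTP1, a glutathione transferase, at 460.5, 465 and 471 CPM. AKR1C3 (171 ± 7.25 CPM), ALDH2 (120.4 ± 2.58), ALDH7A1 (104 ± 2.18) and AKR1A1 (100.2 ± 3.14 CPM) followed. The stem-cell aldehyde dehydrogenases were lower in counts, ALDH1A3 at 37.7 ± 1.81 and ALDH1A1 at 14.1 ± 1.2 CPM. DPYD, which breaks down fluorouracil, was at 0.111 ± 0.0738 CPM, and TYMS, its target, was on at 85 ± 0.861 CPM. CYP3A5 was on (7.47 ± 0.495 CPM). Among the silent genes ALDH1A2, CYP1A2, CYP3A4, GSTM1 and UGT2B17 had 1 count each; GSTM1 and UGT2B17 are genes that many genomes lack.

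ABC transporters were on in 21 of 27 cases (30 chosen) and none in the table was silent. ABCE1, a ribosome recycling factor, had the most counts (265, 261 and 257 CPM). ABCC2, an exporter of conjugated drugs (119, 111 and 117 CPM), ABCC4 (103 ± 6.13), ABCD3 (100.2 ± 4.29) and ABCF1 (72 ± 2.24 CPM) were also high. ABCB1, the multidrug pump, was on at 34.4, 34.9 and 31.4 CPM, and ABCG2, another drug pump, was at 0.112 ± 0.0896 CPM. Mismatch repair genes were on in all 8 cases, with MSH6 at 89.3, 94 and 92.1, PMS1 at 58.9 ± 2.19, MSH3 at 41.6 ± 2.33 and EXO1 at 37.3 ± 1.98 CPM. MGMT, chosen with them, had no count in the 3 libraries.

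OSBP-related proteins and their anchors on the endoplasmic reticulum, VAPA and VAPB, exchange sterols and phospholipids between membranes. Of these 14 genes 13 were on and OSBPL5 was below the threshold (3.49 ± 0.856 CPM). OSBP had the most counts (208, 229 and 219 CPM), and OSBPL8 was at 188, 193 and 196 and OSBPL3, the target of the series, at 176, 172 and 172 CPM. Per kb OSBP was the highest (39.8 ± 1.84), and OSBPL3 (21.4 ± 0.338) and OSBPL8 (20.9 ± 0.435) overlapped each other. VAPA (142 ± 1.54 CPM), OSBPL9 (124 ± 6.28) and VAPB (81.4 ± 3.39 CPM) came next.

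The 3 libraries lay close together. Over the genes that were on, Pearson's r of log2 levels was 0.997 for each pair, which describes the genes of these libraries, and genes are no replicates of a condition. The median coefficient of variation (CV, SD over mean) was 3.85%. The counting CV (1 over the square root of the mean count) had a median of 2.81%. A CV estimated from 3 libraries has a median below the true CV. Counting error alone would thus give a median below 2.81%, and likewise at each level below. The spread beyond counting, as edgeR's common biological coefficient of variation, was 3.89% over 14009 genes. Of the genes that were on, 6772 (63.1%) had a CV below 5%, 1014 above 10% and 58 (0.540%) above 20%. The spread fell with level: the median CV was 8.95% at 5 to 10 CPM (counting 6.56%), 3.41% at 30 to 100 CPM (2.43%) and 1.56% at 300 to 1000 CPM (0.832%). It did not fall further at 1000 CPM and more (1.81%, with 0.463% from counting). Among the 1014 genes with a CV above 10%, library 1 was the farthest from the median library in 341, library 2 in 321 and library 3 in 352. The few differences of 2-fold or more all involved library 3. They were found in 3 genes against library 1 and 2 genes against library 2, and in 0 genes between libraries 1 and 2. Deviations also followed GC content in opposite directions, with a Spearman rho over 10342 genes of -0.21 in library 1, 0.02 in library 2 and 0.20 in library 3.

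**Figure D5:**
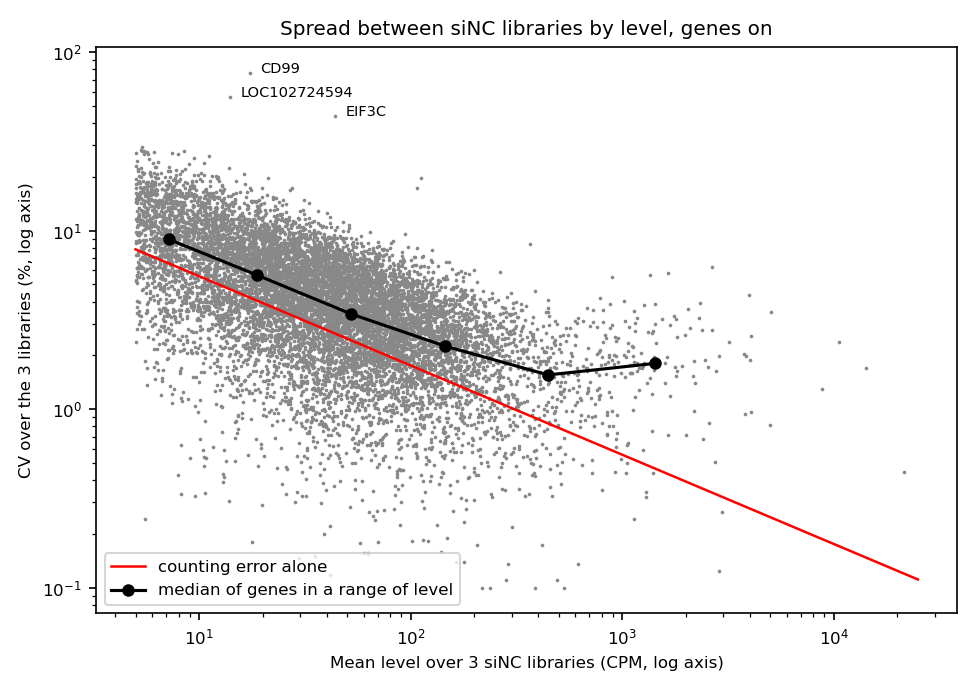
CV over the 3 siNC libraries (y axis, %, log axis, values under 0.1 drawn at 0.1) against the mean level (x axis, CPM, log axis) for the 10731 genes that were on; black points are medians of ranges of level and the red line is the counting CV. Counting error alone would put the medians of 3 libraries below that line. Medians run parallel to the red line up to 300 CPM and then level off, and CD99, LOC102724594 and EIF3C stand far above the other genes.

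Only 3 of the genes that were on differed 2-fold or more between any pair of libraries, and each has near-identical copies or a second location in the genome. CD99, a surface protein whose gene lies in the region shared by X and Y, was at 29.3, 19.9 and 2.98 CPM (CV 76.7%). LOC102724594, a near copy of the splicing factor U2AF1, was at 19.3, 17.9 and 4.94 CPM (CV 56.4%), and EIF3C, a translation factor, at 29.3, 36.5 and 65.6 CPM (CV 43.9%). For EIF3C and LOC102724594 the sum with a listed copy still differed between libraries, and no sum was made for CD99. How reads shared by copies were counted is not given, so these sums cannot show where such reads went. EIF3CL, the copy of EIF3C, was at 22.6, 23.3 and 22.8 CPM, and the sum of both kept a CV of 28.8%. U2AF1 itself was at 1.11, 0.594 and 1.69 CPM, and its sum with LOC102724594 had a CV of 49.2%. SLC25A6, another gene of the region that X and Y share, was at 6.21, 3.65 and 6.3 CPM (CV 27.9%). The other genes with the largest CV, FGGY-DT (29.3%), ZNF443 (28.3%), TMEM269 (28.1%), LOC107984583 (27.8%), KRT81 (27.7%) and EML6 (27.4%), were all below 10 CPM, where counting adds most. The smallest CVs belonged to ARMH3 and CLP1 (0.037%), FAM53C (0.043%), ARHGAP18 (0.052%) and PYGL (0.061%). The counting CV of these genes was from 1.14% (PYGL) to 3.50% (CLP1), so such small values from 3 libraries do not mark stable genes.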

How the data were processed

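RNA-seq of 3 siNC libraries was used, from total RNA extracted with Trizol and sequenced in pairs, per the labels' protocols. The deposited values are raw read counts for each gene symbol, which the authors did not normalize. HISAT2 2.2.1, HTSeq 0.13.5 and the GRCh38 (hg38) build are named in the submitters' processing notes. The annotation, strand setting, counting options and any selection of poly(A) RNA are not given in the sources used here, so overlapping genes, antisense genes and near-identical copies are uncertain.

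Sample titles gave the groups, and library names tied each column to its sample. Counts were scaled to CPM with TMM factors of the 3 libraries in edgeR 4.0.16 (R 4.3.3). The biological coefficient of variation came from edgeR with an intercept alone, after filterByExpr (minimum count 10, total 15), and was tested on simulated data. Library totals were 30040020 to 33667128, where 3 counts amount to between 0.0891 and 0.0999 CPM in a library. Every pair of libraries differed by more than sampling noise (chi-square over its degrees of freedom 2.97 to 3.59). RefSeq matched 19862 symbols (233 by synonym), and 16399 had a GENCODE 29 exon length. Of 875 entries in 33 gene lists 727 were in the table, 13 through a mitochondrial symbol.

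No test was run, since 1 group has no contrast. Named genes were OSBPL3, the 25 highest by CPM, the 15 highest per kb, up to 6 leading members and the silent members of each list, the extremes of CV and the genes at the threshold; others were chosen after their values were seen. Some genes that met this rule are not reported here. The members and lists were chosen with earlier results of these data known. Alternatives were library totals, DESeq2 1.42.0 size factors, other thresholds, filters and lengths, sizes without mitochondrial genes, and each library left out.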

Additional observations from a re-analysis of the deposited data

How the results depend on the processing

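The number of genes on stayed within 1.5 times of 10731 in all 9 alternatives run: 10731 with library totals and with DESeq2 size factors, 12840 at 1 CPM, 9507 at 10 CPM, 10546 with 5 CPM in every library, 10826 with sizes that leave out mitochondrial genes, and 10724 to 10734 without 1 library. The number of silent genes rests on its limit: it was 785 with no count allowed, 4490 with 10 counts or fewer, and 3360 to 3459 without 1 library, where fewer counts remain. The share of the 20 most abundant genes was 7.72% without mitochondrial genes and 11.27% to 11.30% without 1 library. The biological coefficient of variation ran from 3.57% to 4.28% without 1 library, the highest without library 2. The median CV was 8.85% with no filter on low counts, and 3.00% to 3.31% without 1 library, where the SD rests on fewer samples. Per kb of the longest transcript, 21 of the 25 genes highest per kb of merged exon remained. Mitochondrial genes were taken by chromosome, since the table does not use the MT- prefix. No paired analysis was possible because the levels come from 1 group and from no test. Depth limits the silent class: a count of 0 over the group allows up to 0.0309 CPM, and genes with 1 to 3 counts may lie above that. The number of members on moved by more than 1.5 times in 7 of 33 lists at 1 CPM, in 2 at 10 CPM and in none without 1 library; the number silent moved in 22 with no count allowed and in 12 at 10 counts. Shares per list cover only members in the table.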

Other observations

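Gene families taken by symbol, over the members in the table, differed in how many members were on; some members are in the lists above as well. All 34 aminoacyl-tRNA synthetases, which load transfer RNAs, were on, from PARS2 (6.13 CPM) to KARS1 (741 CPM), and so were all 37 nuclear subunits of complex I in the table. Of 37 proteasome subunits 36 were on, and the exception was PSMB9, a subunit that interferon induces (4.05 ± 0.323 CPM). Of 82 cytosolic ribosomal protein genes 79 were on (median 1032 CPM), the other 3 being RPL3L (0.0909 ± 0.103 CPM), RPS10 and RPL36A, and of 78 mitochondrial ones 76 (median 60.5 CPM). Zinc finger genes named ZNF were on in 277 of 395 cases (70.1%) and silent in 4.30%, and kinesins in 30 of 38. Solute carriers were on in 180 of 299 cases (60.2%), with the most counts in the glutamine carrier SLC38A2 (1138, 1144 and 1139.9 CPM). The shares of ZNF genes and solute carriers that were on lay near the 67.1% of all protein-coding genes.

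In other families few of the members in the table were on, against 67.1% of all protein-coding genes. Potassium channel genes were on in 12 of 54 cases, with the most counts in KCNE3 (50 ± 1.46 CPM), and cytochromes P450 in 10 of 38, with the most counts in CYP51A1 of sterol synthesis (100.4 ± 1.35 CPM). Of 15 WNT ligands in the table WNT7B alone was on (16.1, 13.7 and 14.2 CPM). Of 23 chemokines 6 were on, and CCL20, which draws cells that carry CCR6, stood at 77.2, 78 and 72.3 CPM. Of 26 interleukins 5 were on, with the most counts in IL23A (15.1 ± 1.47 CPM). Collagens were on in 9 of 34 cases, with the most counts in COL18A1 of basement membranes (69.2 ± 4.31 CPM), and protocadherins in 2 of 31. Of 15 HLA genes 5 were on and 5 were silent. Of 19 olfactory receptors OR51B5 alone was on, at 47.8, 47 and 50.2 CPM, and 57.9% were silent. Histone genes were on in 13 of 64 cases; most histone mRNAs lack a poly(A) tail, and how RNA was selected is not given in the sources used here. Long intergenic LINC genes were on in 68 of 626 cases (10.9%), which is no less than the 8.11% of all long non-coding RNA genes. The most counts were in LINC00460 (151, 151 and 154 CPM).

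Some low values in families that every cell uses stood at loci where RefSeq lists a readthrough gene that joins neighbours; RPL3L, a muscle form, and PSMB9 are low without one. RPS10 (3.48, 3.09 and 2.72 CPM), RPL36A (0.81, 1.37 and 1.33 CPM) and RPL17 (17.3, 16.1 and 17.1 CPM) belong to such loci, against a median of 1039 CPM for the other 79 cytosolic ribosomal protein genes. MRPS24 had 3 counts and MRPS28 4.03 ± 0.158 CPM, against 63.5 CPM for the other 76 mitochondrial ones. NDUFC2 was at 14.4 ± 1.29 CPM, against 68.8 CPM for the other 36 complex I subunits. Over all protein-coding genes, 259 at such loci were on in 44.8% of cases with a median of 3.03 CPM, against 67.4% and 19.9 CPM for the other 15112. By exon overlap, 240 protein-coding genes with at least 50% of their exons shared on the same strand were on in 39.6% of cases (median 1.5 CPM), against 68.0% (median 20.4 CPM) of 14704 with less. How reads that match more than 1 gene were counted is not given in the sources used here, and its part in these low values was not tested.

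By position, protein-coding genes were on most often on chromosomes 14 (72.4%) and 13 (71.5%) and least often on chromosomes 19 (58.8%) and X (62.6%). Runs of neighbours were taken over the listed protein-coding genes, and any gene without a row was skipped. The longest such runs of genes that were on held 26 genes, and 1 of them lay at chr14:52639915-57415906, from ERO1A to NAA30. Among the listed genes a single run of 5 or more silent genes was found. It held 8 genes at chr17:36088256-36439521 (CCL3, CCL3L3, CCL4L2 and 5 TBC1D3 genes, coordinates of GRCh38.p14). They belong to families with near-identical copies, so that their counts are uncertain. Clusters of silent genes without a row would not be seen.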
